A study of Mus musculus with 2 samples.

Results

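The expression of 10 genes of the antioxidant response and of ferroptosis defence was followed across liver cell classes in single-cell RNA-seq of WT and N-LKO mice. The 10 genes, of 32285 listed in both matrices, were taken by symbol: Nfe2l2, which encodes the transcription factor NRF2, Keap1, Nqo1, Gclc, Gclm, Hmox1, Txnrd1, Srxn1, Slc7a11 and Gpx4. All 10 had UMIs (unique molecular identifiers, each counting 1 tagged transcript) in both libraries. The rule is the symbol alone and uses no measured value.

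WT mice were the controls (genotype label CTRL, tissue Liver). N-LKO mice lacked NgBR, the product of Nus1, in the liver through albumin-Cre, which the study describes as a hepatocyte-specific deletion. Their library held liver plus tumor (genotype label NgBR KO). According to the treatment labels both groups had been given WD for 16 weeks, whereas the titles name HFD. The methods describe male mice of a C57BL6 background and mix hepatocytes with nonparenchymal cells, with tumor cells added in the N-LKO library only. They place the switch to the diet after 8 weeks on chow. The number of mice behind each library was not given in the sources used here. Each group was 1 library, so no p-value could be computed, and genotype, tumor tissue and library cannot be told apart. Intervals throughout are at the 95% level and cover counting error only.

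After filtering, 18431 WT cells and 19855 N-LKO cells remained, with a median of 1400 and 1455 UMIs per cell. Cells were clustered and called X-like from marker genes, which gave 10 classes with at least 200 cells in each library. Of these, hepatocyte-like cells numbered 9927 in WT and 4148 in N-LKO, and Kupffer-like cells, the resident macrophages of the liver, 1698 and 3616. All 10 hepatocyte markers had UMIs in hepatocyte-like cells and summed to 41746 CPM (UMIs per 1000000 UMIs of the class) in WT and 27587 CPM in N-LKO, and the 10 cholangiocyte markers there summed to 213 and 695 CPM. Hepatocyte-like cells of the 2 libraries fell into different clusters. Cluster 1 held 8297 WT and 89 N-LKO cells, cluster 6 held 115 and 1999, and cluster 7 held 1 and 2032, so a comparison between the libraries within hepatocyte-like cells is largely one between these clusters. The libraries shared 2499 barcodes, and leaving the shared ones out reversed no value. Nus1, the deleted gene, was at 73.0 CPM in WT hepatocyte-like cells and 34.0 CPM in those of N-LKO (log2 ratio -1.10). The study's supplement places loxP sites around exon 1, so reads from the 3′ end of Nus1 can persist.

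NRF2 is held in the cytoplasm by KEAP1, which directs it to ubiquitination and breakdown. Oxidants and electrophiles modify KEAP1, NRF2 then enters the nucleus, pairs with small MAF proteins and binds antioxidant response elements near genes for detoxification, glutathione synthesis and thioredoxin reduction. Ferroptosis is an iron-dependent death by lipid peroxidation. It is held back by GPX4, which reduces lipid peroxides with glutathione, and by the cystine importer SLC7A11, which supplies the cysteine that glutathione contains.

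To show what such an element looks like in these genes, promoter windows from RefSeq (GRCm38.p6, 250 bases before to 50 after a gene's start) were searched on both strands for the core TGACNNNGC. Of the 10 genes, 8 had a window, and 4 of these 8 held a match, against 3781 of 27025 genes (14%) in the whole table. Gclc and Hmox1 had no entry. The 4 matches follow, each with 10 flanking bases per side, 5′ to 3′ on the gene's strand, with the 9-base core in capitals.
Nfe2l2, chr2:75704885-75704913, minus strand: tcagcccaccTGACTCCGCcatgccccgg
Gclm, chr3:122245413-122245441, plus strand: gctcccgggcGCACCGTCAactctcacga
Txnrd1, chr10:82859104-82859132, plus strand: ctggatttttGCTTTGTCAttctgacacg
Srxn1, chr2:152105542-152105570, plus strand: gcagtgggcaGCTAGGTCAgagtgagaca
The core reads forward in Nfe2l2 and as its reverse complement in the others. Counted from the start that each window belongs to, the first base of the match lies at -240 in Nfe2l2, at -134 in Gclm, at -92 in Txnrd1 and at 29 in Srxn1. For Txnrd1 this is 1 of 3 windows, at a start that lies inside the gene as annotated from its first start. The windows of Keap1, Nqo1, Slc7a11 and Gpx4 did not contain these letters. A match is a description of letters and not of binding.

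In hepatocyte-like cells, the cystine importer gene Slc7a11 was the only one of the 10 genes to differ by at least 2-fold, and it was higher in N-LKO. Nfe2l2, Nqo1, Txnrd1, Srxn1 and Gpx4 were higher by less on the scale of total UMIs, of which Txnrd1 and Srxn1 turn to -0.23 and -0.06 with TMM scaling. Gclc and Gclm, which encode the subunits of the glutathione synthesis enzyme, were lower on every scaling tried. Gclm, though, turned to 2.16 with free RNA subtracted and to 0.12 without clusters rich or poor in the nuclear RNA Malat1 (both described further on). Keap1 and Hmox1 lay within counting error. A call here means at least 2-fold with at least 5 CPM in a library. All 10 genes reached 5 CPM in at least 1 library, Slc7a11 in N-LKO only. Of the 10, 1 was called higher and 0 lower. By the same rule 21.7% of 10633 genes were called higher and 2.41% lower. Beyond counting error, 6 of the 10 genes were higher and 2 lower, beside 55.3% and 18% of all genes.

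The typical gene was itself higher in N-LKO among hepatocyte-like cells. Over all 10633 genes the log2 ratio had a median of 0.39 and over the 10 a median of 0.33. Relative to the median of all genes, 3 of the 10 were higher beyond counting error (36.2% of all genes), 4 lower (35.9%) and 3 neither. With TMM scaling, which trims extreme genes before matching the libraries, 1 was higher (32.1% of all genes), 5 were lower (40.4%) and 4 neither. The direction of a modest difference in these cells is therefore a direction against total UMIs.

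**Figure D1:**
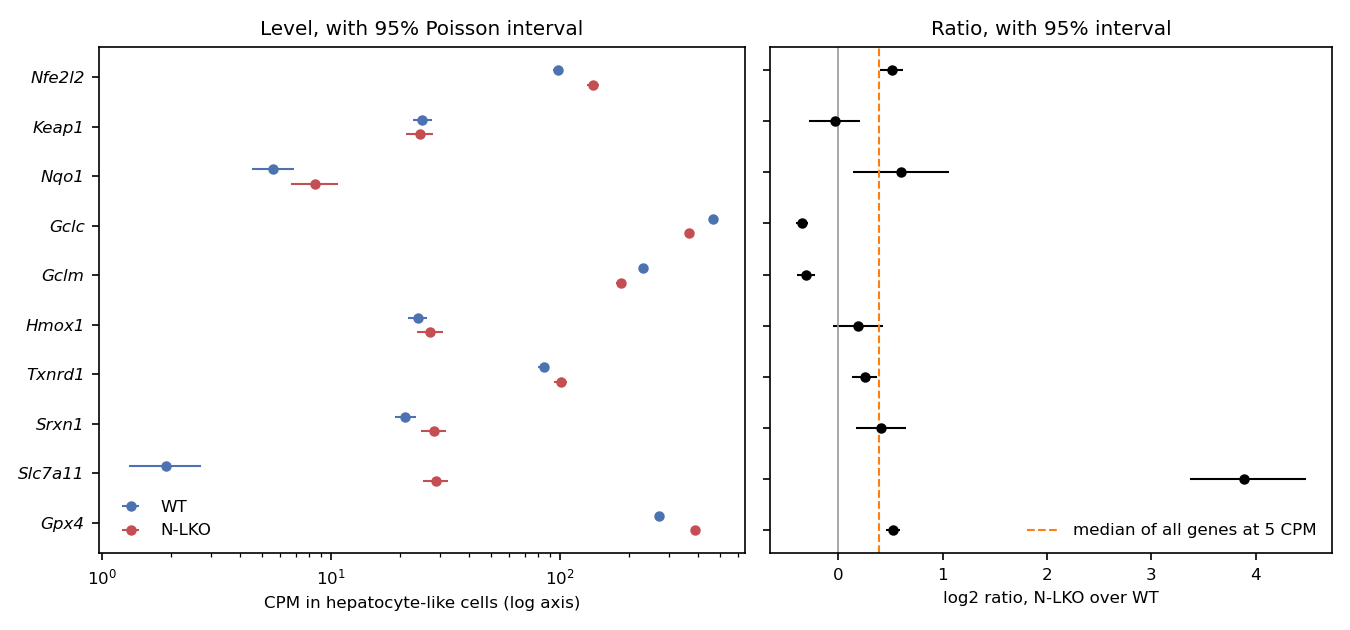
Level of each of the 10 genes in hepatocyte-like cells of the WT and N-LKO libraries (CPM, log axis) with 95% counting intervals, beside the log2 ratio of N-LKO over WT, with the median of all genes drawn as a line at 0.39. Slc7a11 stands apart at a log2 ratio of 3.89, while the other 9 genes lie between -0.35 and 0.60.

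Nfe2l2 (ENSMUSG00000015839) had 1641 UMIs in WT hepatocyte-like cells and 1197 in N-LKO, or 97.9 and 139 CPM. The log2 ratio was 0.51 (interval 0.40 to 0.62), which is 0.12 above the median of all genes. Its inhibitor Keap1 (ENSMUSG00000003308) had 420 and 210 UMIs, or 25.1 and 24.5 CPM. That difference was within counting error (log2 ratio -0.03, interval -0.28 to 0.21). Neither the transcript of the factor nor that of its inhibitor thus passed 2-fold. NRF2 is known to be controlled mainly as a protein, which these data do not measure.

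Nqo1 (ENSMUSG00000003849) encodes a quinone reductase, a classical NRF2 target. It was near the 5 CPM limit, at 5.61 CPM (94 UMIs) in WT hepatocyte-like cells and 8.51 CPM (73 UMIs) in N-LKO, with a log2 ratio of 0.60 (interval 0.14 to 1.06). Hmox1 (ENSMUSG00000005413), for the heme-degrading enzyme heme oxygenase 1, was at 23.9 and 27.1 CPM. Its log2 ratio of 0.19 had an interval from -0.05 to 0.42. Txnrd1 (ENSMUSG00000020250), for the cytosolic thioredoxin reductase, was at 84.7 and 101 CPM, with a log2 ratio of 0.25. Srxn1 (ENSMUSG00000032802), whose product repairs overoxidized peroxiredoxins, was at 21.1 and 28.1 CPM, with a log2 ratio of 0.41. Txnrd1 overlaps Eid3 on the same strand and 2 genes on the other, so a part of its UMIs may belong to a neighbor.

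Gclc (ENSMUSG00000032350) encodes the catalytic subunit of glutamate-cysteine ligase, which makes the first bond of glutathione, and was the most counted of the 10 genes in WT hepatocyte-like cells. It had 7835 UMIs in WT and 3151 in N-LKO, or 468 and 367 CPM (log2 ratio -0.35, interval -0.41 to -0.29). Gclm (ENSMUSG00000028124), for the modifier subunit, was lower too, at 229 and 185 CPM (log2 ratio -0.31). Relative to the median of all genes these values were -0.74 and -0.70. With free RNA subtracted (described further on), Gclc was at -0.36 and Gclm turned to 2.16. For Gclm only 15.3 of the 229 CPM in WT lay above the free-RNA estimate.

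Gpx4 (ENSMUSG00000075706), for the lipid peroxide reductase, was higher in N-LKO hepatocyte-like cells by the library totals. It had 4517 UMIs in WT and 3328 in N-LKO, or 269.5 and 388 CPM (log2 ratio 0.52, interval 0.46 to 0.59). With TMM scaling the log2 ratio was 0.05. Among the 679 WT and 738 N-LKO hepatocyte-like cells with at most 10% of UMIs from mitochondrial genes it was -0.77, the opposite direction. In the same cells Nfe2l2 was at -0.08, Txnrd1 at -0.15 and Srxn1 at -0.10, so their higher values were not found there either.

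Slc7a11 (ENSMUSG00000027737) had 32 UMIs in WT and 246 in N-LKO, or 1.91 and 28.7 CPM. The log2 ratio was 3.89 (interval 3.37 to 4.49). Slc3a2, which encodes the partner chain that carries SLC7A11 to the cell surface and is no member, was at 12.4 and 21.6 CPM (log2 ratio 0.80). The Slc7a11 gene spans 551 kb on chromosome 3 and overlaps 2 annotated genes on its own strand and 3 on the other. With genes split into 5 groups by span it is in the group of the longest, whose median log2 ratio in these cells was 0.94, above the 0.39 of all genes. Whether intronic reads were counted is not given in the sources used here.

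The Slc7a11 counts were gathered in few cells. In WT hepatocyte-like cells its 32 UMIs lay in 32 different cells. In N-LKO its 246 UMIs lay in 135 of 4148 cells (3.25%), 18 cells held 3 or more, and the highest cell held 23. The 10 cells with the most UMIs accounted for 35.4% of the total. With each cell thinned to 1000 UMIs the share of cells with a UMI was 0.181% in WT and 1.76% in N-LKO, with median depths of 1520 and 1778 UMIs before thinning. A cell type known to lack the gene was not available for comparison. The share in B-like cells was 0 of 321 in WT, and 3.46% in N-LKO.

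Within hepatocyte-like cells several of the 10 genes also differed between clusters of 1 library. Cluster 7 of N-LKO was rich in Malat1, a nuclear RNA, at 20111 CPM, and cluster 6 was at 4588 CPM. Slc7a11 was at 53.9 CPM in cluster 7 and at 7.22 CPM in cluster 6, against 2.22 CPM in cluster 1 of WT. Of the 246 UMIs, 212 were in 103 cells of cluster 7 and 32 in 30 cells of cluster 6. No cell of cluster 6 held more than 2, so the cells with many counts were in cluster 7. The hepatocyte markers were weaker in cluster 7, where 4 of 10 were raised and Alb, the albumin gene, was at 4082 CPM, against 16337 CPM in cluster 6 of N-LKO and 23725 CPM in cluster 1 of WT.

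Gpx4 and Srxn1 ran the other way. Gpx4 was at 611 CPM in cluster 6 and 130 CPM in cluster 7, and Srxn1 at 40.6 and 14.5 CPM. The WT clusters showed the same order by Malat1. Gpx4 was at 647 CPM in the Malat1-poor cluster 10, at 231 CPM in cluster 1 and at 153 CPM in the Malat1-rich cluster 18. Gclm followed it with 365, 218 and 140 CPM. Gclc did not, with 442, 467 and 500 CPM, and Nfe2l2 was at 151, 86.3 and 203 CPM. Slc7a11 had 0 UMIs in cluster 18, which allows up to 5.43 CPM, beside 53.9 CPM in the Malat1-rich cluster 7 of N-LKO. Gpx4 and Gclm were thus lower where Malat1 was higher inside 1 library. The part this has in the difference between the libraries was not tested.

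Without the clusters whose Malat1 level was more than 2 times or under 1/2 of that of the median hepatocyte-like cluster, 8412 WT and 2088 N-LKO cells were left. They were those of clusters 1 and 6, mostly cluster 1 in WT and cluster 6 in N-LKO. Malat1 still differed, at 8768 CPM in cluster 1 of WT and 4588 CPM in cluster 6 of N-LKO. Its part in the values below was not tested. Between the cells left, 2 of the 10 genes were at least 2-fold higher, and the share of all genes was not computed. They were Slc7a11, whose log2 ratio was 1.71, and Gpx4, at 1.34. Gclc was at -0.61 and Gclm at 0.12. The 115 WT cells of cluster 6 had Gpx4 at 652 CPM, Srxn1 at 73.9 CPM and Nfe2l2 at 182 CPM, so WT cells of this cluster had the high Gpx4 level too. Their 0 UMIs of Slc7a11 allow a level of up to 16.0 CPM, above the 7.22 CPM of the N-LKO cells of the cluster, so no difference could be seen at this depth.

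**Figure D2:**
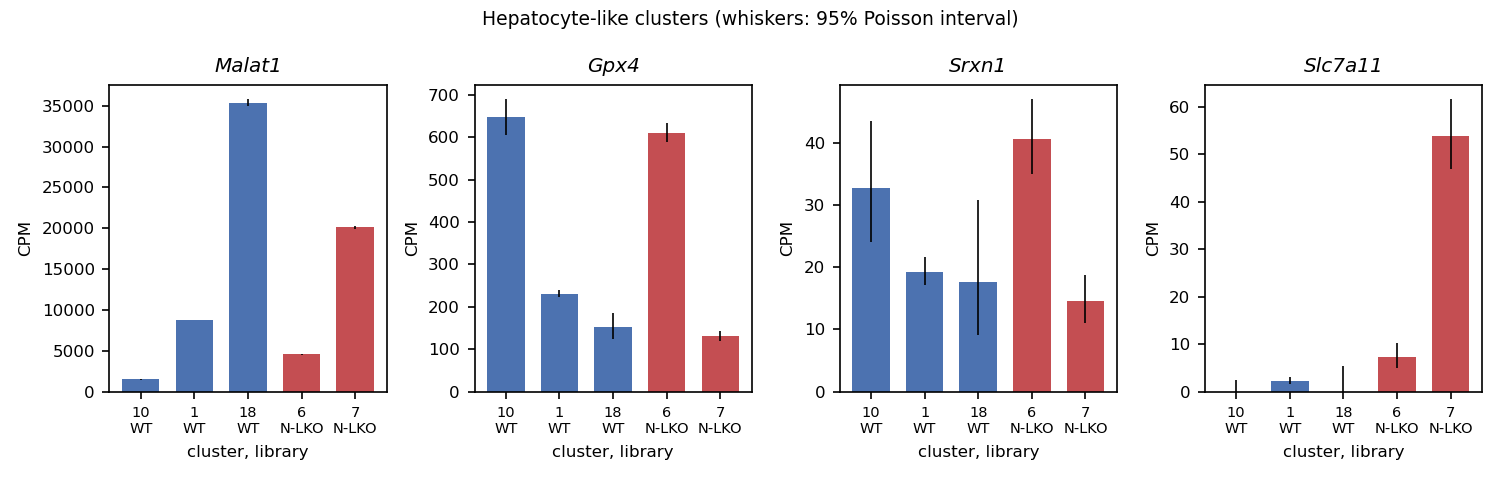
Level (CPM) of Malat1, Gpx4, Srxn1 and Slc7a11 in 5 sets of hepatocyte-like cells, clusters 10, 1 and 18 of WT and clusters 6 and 7 of N-LKO, as bars with 95% Poisson intervals. Slc7a11 is highest in cluster 7 of N-LKO at 53.9 CPM, whereas Gpx4 is higher in the clusters poorer in Malat1, at 647 CPM in cluster 10 of WT and 611 CPM in cluster 6 of N-LKO.

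Transcripts released from broken cells are found in every droplet, so the level of each gene that such free RNA could give was estimated from barcodes under 500 UMIs. The matrices held no barcode under 326 UMIs (WT) or 377 UMIs (N-LKO), so small or damaged cells may be among those barcodes. The share of free RNA in each class was set from markers of other cell types. This is an upper estimate only where those barcodes hold no cells of the other types. The share came to 78.6% of the UMIs in WT hepatocyte-like cells and 41.3% in N-LKO. The 54 markers used there summed to 815 and 821 CPM in the cells, and to 1036.5 and 1989 CPM in those barcodes. In WT, 6 of the 10 genes lay above the estimated free-RNA level beyond counting error, and in N-LKO all 10 did. Gpx4 was counted at 269.5 CPM in WT where the estimate was 390 CPM, and Slc7a11 at 1.91 CPM where it was 2.22 CPM. In N-LKO they were counted at 388 CPM against 118 CPM and at 28.7 CPM against 10.6 CPM. The WT level of Slc7a11 in hepatocyte-like cells is therefore no higher than the free-RNA estimate.

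Neutrophil-like cells carried the highest Slc7a11 level of any class. There it was at 266 CPM (39 UMIs in 105 cells) in WT and 459 CPM (515 UMIs in 726 cells) in N-LKO, with a log2 ratio of 0.77 (interval 0.32 to 1.30). In hepatocyte-like cells the 8 neutrophil markers summed to 16.2 CPM (WT) and 47.3 CPM (N-LKO). If every Slc7a11 UMI had come with neutrophil RNA in the ratio found in neutrophil-like cells, 2.16 CPM would have been counted in N-LKO hepatocyte-like cells, where 28.7 CPM was. Without the cells that held a neutrophil marker UMI, an alternative chosen after seeing the data, the log2 ratio was 3.93. In cluster 7, 6.80% of the cells with Slc7a11 and 7.78% of those without it held a neutrophil marker UMI. In cluster 6 of N-LKO the order was the other way, with 23.3% (7 of 30 cells) and 7.06%. Over all N-LKO hepatocyte-like cells the shares were 11.1% and 7.40%. The part of neutrophil RNA in these counts was not tested.

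**Figure D3:**
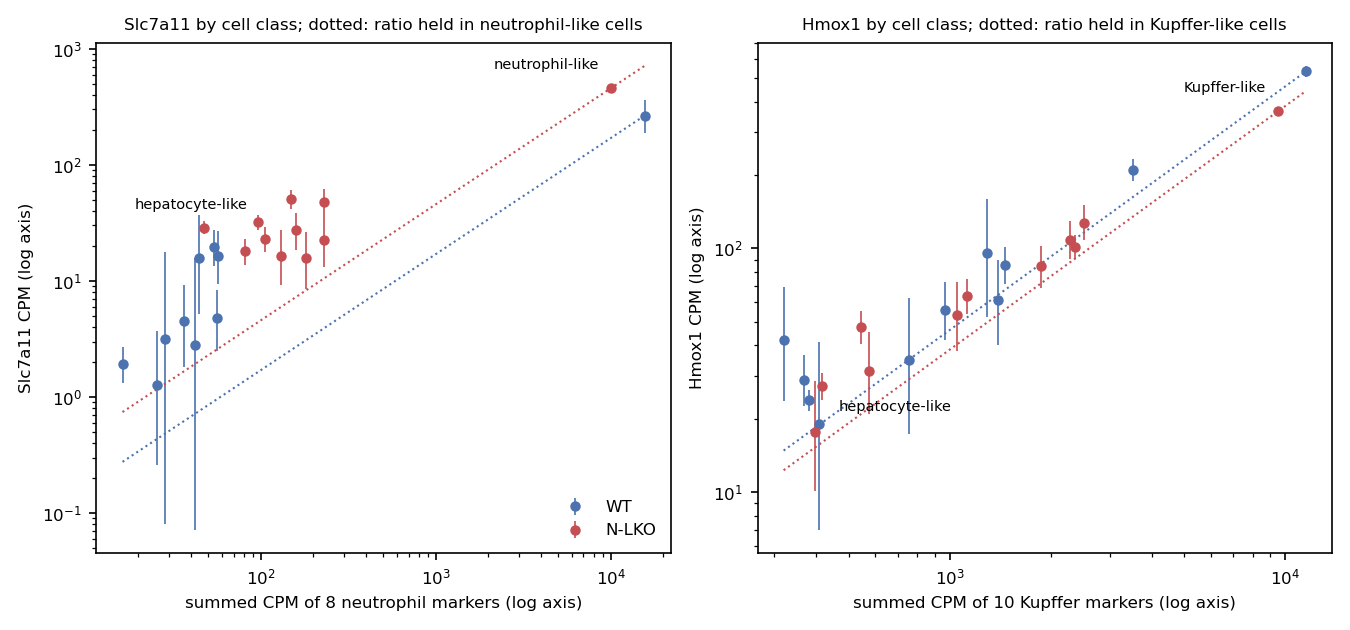
Slc7a11 against the summed level of 8 neutrophil markers, and Hmox1 against that of 10 Kupffer markers (both axes CPM, log scale), 1 point per class and library with 95% Poisson intervals. The B-like cells of WT, with 0 UMIs of Slc7a11, are not drawn. Dotted lines hold the ratio found in neutrophil-like or Kupffer-like cells of each library, and Slc7a11 in N-LKO hepatocyte-like cells, at 28.7 CPM, lies above its line, which gives 2.16 CPM.

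Slc7a11 was higher in N-LKO outside hepatocytes as well. In Kupffer-like cells it went from 4.80 CPM (12 UMIs) to 32.1 CPM (190 UMIs), a log2 ratio of 2.69. In endothelial-like cells it went from 1.26 CPM (3 UMIs) to 17.9 CPM (62 UMIs), a log2 ratio of 3.62 with a wide interval of 2.22 to 6.15. In T/NK-like cells it went from 4.49 to 22.9 CPM (log2 ratio 2.26, and 3.70 without cells that held a neutrophil marker UMI), and in monocyte/macrophage-like cells from 16.5 to 50.7 CPM (log2 ratio 1.58). B-like cells had 0 UMIs in WT and 58 in N-LKO (48.0 CPM), which is at least 6.77-fold higher than the floor of 3 UMIs. The ratio was beyond counting error in these 5 of 9 nonparenchymal classes and within it in hepatic stellate-like, plasmacytoid dendritic-like, cholangiocyte-like and dendritic-like cells. The group of the longest genes had median log2 ratios of 0.18 in Kupffer-like, 0.46 in endothelial-like, 0.50 in T/NK-like, 0.30 in monocyte/macrophage-like and 0.42 in B-like cells. Over all genes these medians were -0.06, 0.09, 0.07, -0.03 and 0.07.

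Slc7a11 was also higher in the barcodes under 500 UMIs, at 2.82 CPM (WT) and 25.6 CPM (N-LKO), where the neutrophil markers were at 51.4 and 241 CPM. Its level in nonparenchymal classes of N-LKO, from 15.7 to 50.7 CPM, thus spans that of the smallest droplets. Above the estimated free-RNA level a median of 12.2 CPM was left over the 9 classes in N-LKO and 3.17 CPM in WT. At the neutrophil ratio the N-LKO levels would have been 4.42 CPM in Kupffer-like and 3.71 CPM in endothelial-like cells. Both counted levels were above these.

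**Figure D4:**
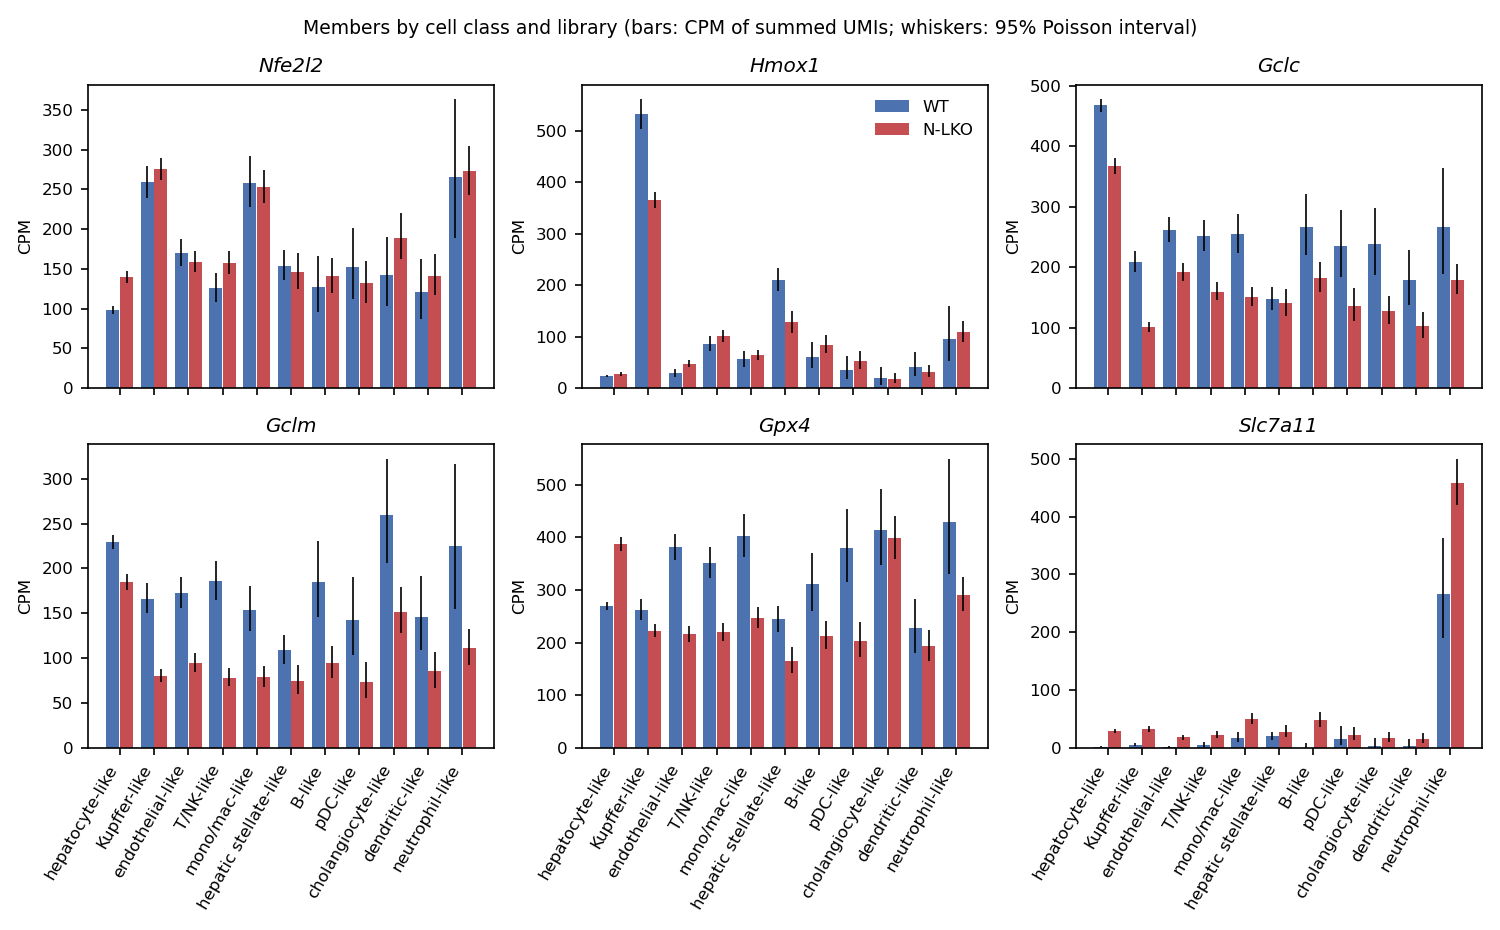
Level (CPM) of Nfe2l2, Hmox1, Gclc, Gclm, Gpx4 and Slc7a11 in the 10 classes and in neutrophil-like cells, as bars per library with 95% Poisson intervals (mono/mac, monocyte/macrophage, and pDC, plasmacytoid dendritic). The N-LKO bar of Slc7a11 is the higher one in every class drawn, and those of Gclc and Gclm are the lower ones.

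By the 2-fold rule the 10 genes gave few calls outside hepatocyte-like cells, and Slc7a11 was the gene called higher wherever there was one. In Kupffer-like cells 1 of the 10 was called higher, beside 4.88% of all genes, and 2 were called lower, beside 6.42%. In endothelial-like cells these counts were 1 (12%) and 0 (7.39%), and in T/NK-like cells 1 (12%) and 1 (8.11%). The genes called lower were Gclc and Gclm in Kupffer-like cells and Gclm in T/NK-like cells. Monocyte/macrophage-like cells had 1 (7.52%) and 0 (9.93%), hepatic stellate-like cells 0 (10.5%) and 0 (8.25%), and B-like cells 1 (13%) and 0 (11.7%). Plasmacytoid dendritic-like cells had 0 (13.3%) and 1 (14.1%), cholangiocyte-like cells 1 (12.4%) and 1 (12.7%), and dendritic-like cells 1 (12.7%) and 1 (11.9%). The calls in these 3 smallest classes rested on at most 15 UMIs in either library.

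Beyond counting error the balance was toward lower values. In Kupffer-like cells 1 of the 10 genes was higher (15.4% of all genes) and 5 were lower (22.4%), in endothelial-like cells 2 (26.6%) and 4 (20.5%), and in T/NK-like cells 2 (24.2%) and 4 (17.9%). In monocyte/macrophage-like cells 1 was higher (12.1%) and 4 lower (16.1%), in hepatic stellate-like cells 0 (14.9%) and 3 (18.7%), and in B-like cells 1 (11.2%) and 3 (11.1%). Plasmacytoid dendritic-like cells had 0 (6.71%) and 3 (8.36%), cholangiocyte-like cells 0 (7.09%) and 3 (7.57%), and dendritic-like cells 0 (6.61%) and 2 (7.55%). The genes lower in most classes were Gclc, Gclm and Gpx4.

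Over the 9 nonparenchymal classes Gclc, Gclm and Gpx4 were mostly lower in N-LKO. Gclc was lower beyond counting error in 8 of 9 classes, with log2 ratios from -1.04 to -0.07, Gclm in 9 of 9 from -1.24 to -0.54, and Gpx4 in 7 of 9 from -0.90 to -0.06. Txnrd1 was lower beyond it in 3 of 9. Among cells with at most 10% mitochondrial UMIs, Gclc turned to 0.41 in endothelial-like, 0.57 in B-like and 0.54 in plasmacytoid dendritic-like cells, and Gclm to 0.11 in hepatic stellate-like cells. None of these 4 genes was higher beyond it in any of the 9 classes. In Kupffer-like cells, Gclc went from 209 to 101 CPM and Gclm from 166 to 80.6 CPM, and both passed 2-fold, though not relative to the median of all genes (-0.98 each). In T/NK-like cells Gclm went from 186 to 78.3 CPM (log2 ratio -1.24).

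The same genes were lower in the barcodes under 500 UMIs of N-LKO, where Gclc was at 357 CPM (WT) and 153 CPM (N-LKO), Gclm at 272 and 101 CPM, Gpx4 at 496 and 286 CPM, and Txnrd1 at 106 and 61.2 CPM. The 10 hepatocyte markers summed to 31865 and 20267 CPM in those barcodes. Above the estimated free-RNA level, on the scale of all UMIs of a class, the medians over the 9 classes were nearly equal for Gclc, at 83.1 (WT) and 80.2 CPM (N-LKO), and for Gclm, at 49.6 and 46.9 CPM. For Gpx4 they were 118 and 92.0 CPM, and for Txnrd1 47.4 and 44.6 CPM. The level above free RNA was the higher one in N-LKO in 5 of 9 classes for Gclc and in 4 of 9 for each of the other 3 genes. With free RNA subtracted and the rest rescaled, Kupffer-like cells still had lower Gclc (log2 ratio -0.78) and Gclm (-0.66), whereas Gpx4 was at 0.44.

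**Figure D5:**
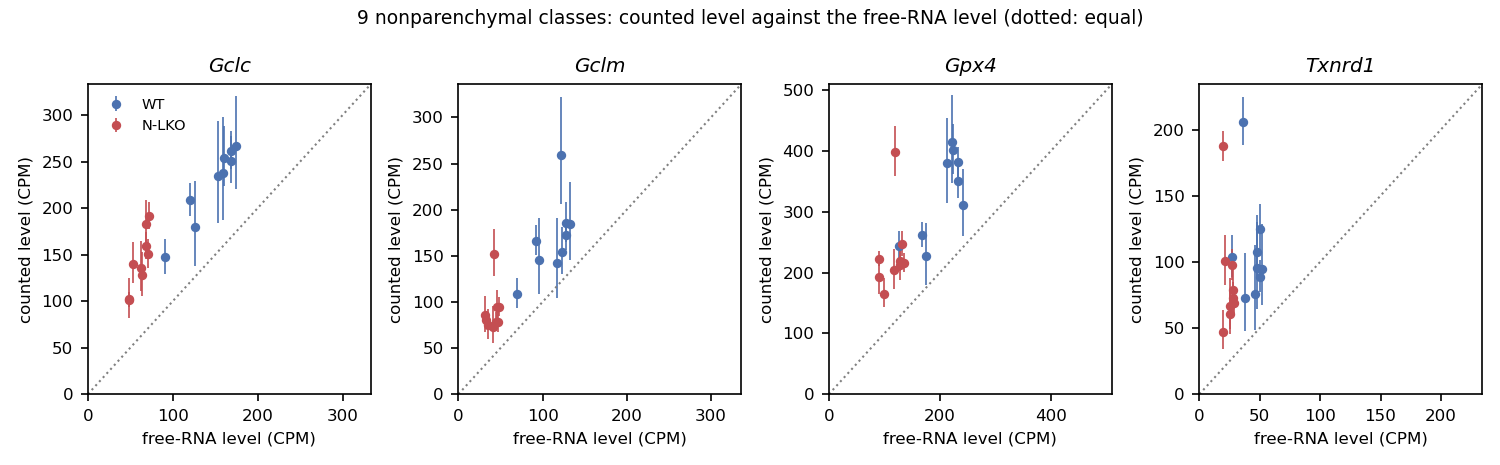
Level of Gclc, Gclm, Gpx4 and Txnrd1 counted in each of the 9 nonparenchymal classes (CPM, 95% Poisson intervals) against the level estimated for free RNA (CPM), with a dotted line where the 2 are equal. The N-LKO points lie at lower free-RNA levels than most WT points, and all points lie above the line.

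Hmox1 was a gene of Kupffer-like cells, which take up old red cells and break down their heme. It was at 533 CPM (1332 UMIs) in WT and 366 CPM (2164 UMIs) in N-LKO Kupffer-like cells, a log2 ratio of -0.54 (interval -0.64 to -0.44). The share of these cells with a UMI after thinning went from 30.5% to 22.7%, and in B-like cells it was 4.05% and 6.53%, at median depths of 1380 and 1496 UMIs for Kupffer-like and 1234 and 1368 UMIs for B-like cells. In hepatic stellate-like cells Hmox1 went from 210 to 128 CPM (log2 ratio -0.72), and in endothelial-like cells from 28.9 to 47.4 CPM (log2 ratio 0.71, interval 0.30 to 1.14). The endothelial value turned to -0.12 among cells with at most 10% mitochondrial UMIs, and a difference between classes was not tested.

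Kupffer markers summed to 3524 CPM in the hepatic stellate-like cells of WT and to 2517 CPM in those of N-LKO. At the ratio of Hmox1 to those markers in Kupffer-like cells, 163 and 96.8 CPM of Hmox1 would have been counted there, under the levels found beyond counting error. In T/NK-like cells that ratio gives 67.7 and 90.8 CPM beside the counted 85.4 and 101 CPM, of which the WT level was above it beyond counting error, and in cholangiocyte-like cells 18.9 and 15.2 CPM beside the counted 19.0 and 17.6 CPM. Endothelial-like cells were above it in both libraries, with 17.0 and 20.8 CPM at that ratio.

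Of the 10 classes, Nfe2l2 was highest in macrophages. In Kupffer-like cells it was at 259 CPM (WT) and 275 CPM (N-LKO) and in monocyte/macrophage-like cells at 258 and 253 CPM, with overlapping intervals of the classes within each library. Neutrophil-like cells, which are not among the 10, were at 266 and 273 CPM. Endothelial-like cells followed in WT at 170 CPM. Hepatocyte-like cells were the lowest of the 10 classes in WT at 97.9 CPM, and ninth in N-LKO at 139 CPM. T/NK-like cells were the only one of the 9 nonparenchymal classes in which Nfe2l2 was higher in N-LKO beyond counting error, at 126 and 158 CPM (log2 ratio 0.33, which turned to -0.11 with no mitochondrial limit). Keap1 lay between 19.6 and 41.6 CPM in every nonparenchymal class and was lower beyond counting error in Kupffer-like cells, from 41.6 to 30.1 CPM (log2 ratio -0.47).

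Of the rest, Txnrd1 was highest in Kupffer-like cells, at 206 and 187 CPM. Srxn1 was between 8.94 and 28.5 CPM in the WT nonparenchymal classes and was lower beyond counting error in 1 of 9, the cholangiocyte-like cells, on 9 and 6 UMIs (log2 ratio -2.07). Nqo1 had at most 20 UMIs in any nonparenchymal class of either library, so a difference in it was not detectable at this depth. Its call in plasmacytoid dendritic-like cells rested on 2 UMIs against 0.

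To place the 10 genes in their pathways, fixed lists of related genes were read in hepatocyte-like cells by the same rule. The 9 genes that control NRF2 all reached 5 CPM in at least 1 library, Maff in N-LKO only. By 2-fold 2 were higher (21.7% of all genes) and 0 lower (2.41%). The list had a median log2 ratio of 0.77 beside 0.39 for all genes. Maff, a small MAF partner, went from 0.955 to 7.92 CPM (log2 ratio 3.02), and Btrc, a ubiquitin ligase subunit that also targets NRF2, from 27.3 to 75.0 CPM (log2 ratio 1.46). Bach1, a repressor at the same elements, was at a log2 ratio of 0.77. A partner and a repressor of NRF2 were thus both higher in N-LKO.

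The 14 measured glutathione genes of 16 had a median of -0.22. Among them 4 were higher (55.3% of all genes) and 8 lower (18%) beyond counting error, and 1 (21.7% of all genes), the transferase gene Gstm3 (log2 ratio 1.56), passed 2-fold. Thioredoxin system genes had a median of 0.14 over 10 of 11. Of these, 2 were at least 2-fold higher (21.7% of all genes), Sesn2 (1.49) and Txnip (1.04), and 0 lower (2.41%). Sesn2 reached 5 CPM in N-LKO only, at 2.45 CPM (WT) and 6.87 CPM (N-LKO). Txnip encodes an inhibitor of thioredoxin. Of 22 other NRF2 targets, 19 were measured, 3 were higher by 2-fold (21.7% of all genes), 1 was lower (2.41%), and the median was 0.27. The exporter gene Abcc4 went from 4.89 to 48.7 CPM (log2 ratio 3.31), Aox1 from 69.7 to 208 CPM (1.57) and Htatip2 was at 1.03. The catalase gene Cat was the lower one, from 2073 to 897 CPM (log2 ratio -1.21).

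Other ferroptosis defence genes had a median of 0.15 over 8 of 11. By 2-fold 0 were higher (21.7% of all genes) and 1 lower (2.41%). Beyond counting error 4 were higher (55.3% of all genes) and 2 lower (18%). The gene lower by 2-fold was Scd1 (log2 ratio -1.15), whose product makes the monounsaturated fatty acids that resist peroxidation. Genes that promote ferroptosis had a median of 0.74 over 7 of 12. By 2-fold 2 were higher (21.7% of all genes) and 0 lower (2.41%), and beyond counting error 5 were higher (55.3%) and 1 lower (18%). The 2 were Por, which encodes the electron donor of cytochromes P450, at 1.41, and Slc39a14, an importer of iron and zinc, at 1.22. Selenoprotein genes, which include the machinery that GPX4 synthesis needs, had a median of 0.01 over 13 of 13. By 2-fold 1 was higher (21.7% of all genes) and 1 lower (2.41%). Sephs2, for selenophosphate synthesis, went from 602 to 194 CPM (log2 ratio -1.64), and Trit1, a tRNA modifier, was at 1.30. Each of these 7 lists held genes on both sides of 0 beyond counting error. A list of 13 genes induced by tissue dissociation summed to 605 CPM (WT) and 739 CPM (N-LKO), and its part in these values was not tested.

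Across the 20 class and library sums the genes most like each member were hepatocyte or macrophage genes for several of them. Over 7013 genes, the pattern closest to Gclc was that of the gluconeogenesis gene Pck1 (Pearson r 0.98), and to Gclm that of Eci1 (0.96), an enzyme of fatty acid oxidation. Hmox1 was closest to the complement gene C1qa (0.98), Txnrd1 to Blvrb (0.92), Nfe2l2 to Zfand5 (0.89) and Gpx4 to Acot13 (0.89). Slc7a11 had 0.83 for Vti1a as its highest, and the highest values of Srxn1, Keap1 and Nqo1 were 0.83, 0.81 and 0.64. The means of Slc7a11, Srxn1 and Nqo1 were under the 20 CPM asked of the genes compared. These points share libraries and free RNA, and the correlations are descriptions only.

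Hepatocyte-like cells were also split into 3 zones by pericentral against periportal markers, which are ranges of a score and not cell types, with 3386, 3243 and 3298 WT cells and 1555, 1581 and 1012 N-LKO cells from the periportal to the pericentral zone. Of these, 2237 and 971 were near a limit. In WT, Hmox1 was at 17.3 CPM in the periportal and 27.2 CPM in the pericentral zone (log2 ratio 0.66, interval 0.29 to 1.03), and Srxn1 at 17.3 and 24.9 CPM (0.53). In N-LKO both were within counting error, at log2 ratios of -0.47 and 0.07. Marker UMIs were few, and the median cell of the N-LKO middle zone held 1 pericentral and 2 periportal UMIs, against 3 and 6 in WT. From the periportal to the pericentral zone of N-LKO, 42.1%, 58.6% and 44.5% of cells came from its largest cluster. A difference in zonation between the libraries was not tested. Nfe2l2 was higher in the pericentral zone of both libraries, by 0.36 in WT and 0.30 in N-LKO, and Gpx4 by 0.18 and 0.19. Slc7a11 was at 28.8, 26.9 and 31.0 CPM in the periportal, middle and pericentral zones of N-LKO, which did not differ beyond counting error.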

How the data were processed

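Single-cell suspensions of WT liver and of N-LKO liver plus tumor were sequenced on a 3′ droplet platform. The authors aligned the reads with Cell Ranger, and the deposited values are whole-number UMI counts, which were not normalized. The submitters' processing notes name mm9, Cell Ranger and Seurat. Whether intronic reads or strand were used in counting is not given in the sources used here. Cell labels made by the authors were not used. The matrices held 100171 barcodes with 85522287 UMIs (WT) and 90147 with 87575064 (N-LKO).

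Barcodes with at least 1000 UMIs, at least 400 genes and at most 30% mitochondrial UMIs were kept. Doublets were removed at a Scrublet score of 0.25 (1727 WT and 2359 N-LKO barcodes). Cells were clustered with scanpy 1.11.5 and leidenalg 0.10.2 (2000 variable genes, 30 components, 20 neighbors, resolution 0.3) into 22 clusters, each named from marker lists. Clusters with markers of several types (871 WT and 2023 N-LKO cells) were left out. A cluster led by genes of several lineages can carry a rebuilt name, so a difference from the study may come from these names. The monocyte/macrophage-like class, for example, also had Ccr7 and Ccl22 among its leading genes, and the dendritic-like class Elane and Mpo.

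UMIs were summed per class and library and given as CPM with exact Poisson intervals. Ratios have exact conditional binomial intervals, and log2 ratios had 0.5 UMIs added to each sum. Free RNA came from barcodes under 500 UMIs. TMM factors (edgeR 4.0.16) were used as scaling only. The scripts were tested on simulated data. Named genes were the 10 members, Nus1, up to 4 genes per list and direction past 2-fold, and the genes most like each member in Pearson r of log2(CPM + 1). Slc3a2, Bach1, Malat1 and the neutrophil values were named after their values were seen. The members and lists were chosen with earlier results of these data known. Alternatives were 14 planned and 1 added.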

Additional observations from a re-analysis of the deposited data

How the results depend on the processing

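No paired analysis was possible because each group was 1 library. In hepatocyte-like cells the number of the 10 genes at least 2-fold higher in N-LKO was 2 rather than 1 with at most 10% mitochondrial UMIs (Hmox1 joined Slc7a11, at log2 ratios of 1.27 and 5.48) and 2 without clusters of high or low Malat1. It was 4 of the 7 with a value after free RNA was subtracted, with Nfe2l2 at 1.31, Srxn1 at 1.49, Gclm at 2.16 and Txnrd1 at 5.09, while Gpx4, Hmox1 and Slc7a11 had none because the estimate took up the WT count. The number higher was 1 under every other alternative, and the number lower was 0 under all. The cause of these changes was not tested. Shares of all genes past 2-fold were not computed under the alternatives. In the main setting they were 21.7% higher and 2.41% lower. Of the 46 member values beyond counting error over the 10 classes, 9 turned direction with at most 10% mitochondrial UMIs, 12 of 41 with free RNA subtracted, 2 with TMM scaling, and 1 each relative to the median of all genes, with no mitochondrial limit and without clusters of high or low Malat1. None turned under the other alternatives. The lower mitochondrial limit turned Nqo1 in plasmacytoid dendritic-like cells to 0.33 and Slc7a11 in dendritic-like cells to -0.25 as well, both at least 2-fold on few UMIs but within counting error. Counting a log2 ratio as moved when it left its own counting interval, that limit moved 40 of 100 and subtraction of free RNA 30 of 81. Without shared barcodes, or without cells that held a neutrophil marker UMI, 0 of 100 left it, though intervals are wide where UMIs are few (Slc7a11 in T/NK-like cells went from 2.26 to 3.70). With no mitochondrial limit, with doublets kept or with at least 500 UMIs per barcode, the monocyte/macrophage-like cluster took the dendritic-like name and had no value. Genes with few UMIs, Nqo1 above all, are limited by depth.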
